A study of Mus musculus with 830 samples.

Results

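Hox genes encode homeodomain transcription factors and are arranged in 4 chromosomal clusters in the mouse. Genes at the same place in each cluster form a paralog group. Low-numbered groups are known for expression from the head end of the trunk backwards and high-numbered groups for expression restricted to the tail end, so the set of Hox genes in a cell is used as a record of its position along the body axis. In the gut tube, Cdx2 and the other caudal genes are known activators of Hox genes, and Pbx and Meis proteins of the TALE family bind DNA together with Hox proteins.

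The members described here are all rows of the read count table whose symbol is Hox, a letter a to d and a number with nothing after it. That rule found 39 of 26313 listed genes, which is the full set of 11 Hoxa, 10 Hoxb, 9 Hoxc and 9 Hoxd genes. RNA was measured in 830 single cells taken from endoderm and gut of C57BL/6XC3H embryos, stained for the epithelial surface protein EpCAM and sorted, by Smart-seq3xpress, which makes libraries in plates from whole transcripts. Ngn3-Cre; Ai6 cells (called Ngn3Cre here, 333 cells) carry Cre under the control of Neurog3, the gene for a factor needed to form endocrine cells, with a fluorescent reporter that stays on in descendants, so cells outside the endocrine lineage in which this Cre acted can be marked too. Ngn3-GFP/GFP cells (HM, 171 cells) carry GFP on both Neurog3 alleles and Ngn3-GFP/+ cells (HZ, 326 cells) on 1 allele. Embryos had 15, 18, 21, 24 or 27 somites. The labels name no embryo, so reads were summed over the cells of each reporter and stage into 14 pools, of which the 11 with at least 10 cells were compared, and p-values measure only the spread between these pools.

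Reads per cell ranged from 1400 to 2525083 with a median of 452597, and the median was 465918 in Ngn3Cre, 626967 in HM and 378157 in HZ cells. A cell with 100000 reads gives 10 CPM (reads scaled to the same total in every cell or pool) for a single read, and 117 cells were shallower than that. The cells were also clustered with every Hox gene left out. Of 13 clusters, 5 were endocrine-like (429 cells), 2 pancreatic progenitor-like (123 cells), 1 neural and neural crest-like (67 cells), 1 hepatic-like (20 cells) and 1 mesenchyme-like (51 cells), and 3 had too few of the listed markers for a name. Clusters 9 (53 cells) and 11 (47 cells) both expressed the intestinal gene Cdx2, with mean levels of 222 and 193 CPM. Cluster 13 (19 cells) expressed Sox2 and Pax8. The mesenchyme-like cluster is mixed: Col3a1, Col1a1 and Foxf1 were among its leading genes beside Cdx4, and reached 10 CPM in 22, 22 and 17 of its 51 cells, while the epithelial gene Epcam did so in 45.

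The clusters lie on chromosome 6 (Hoxa, 52155590 to 52260880), chromosome 11 (Hoxb, 96194316 to 96368256), chromosome 15 (Hoxc, 102921103 to 103036852) and chromosome 2 (Hoxd, 74668310 to 74765142) in GENCODE vM21 on GRCm38. RefSeq promoter windows were at hand for 22 of the 39 members. One window each of an anterior, a central and a posterior member is shown, chosen after the levels were seen. None of the 3 overlaps its own annotated gene, but windows of other members, such as Hoxa11 and Hoxd8, do not either. Each gives the 250 bases before the start, 5′ to 3′ in the direction of the gene, on GRCm38.p6, with matches in capitals to a caudal-type motif (TTTATG), a Hox-Pbx motif (TGATNNAT) or a Meis motif (TGACAG), or to the retinoic acid receptor repeat DR5, searched on both strands.
Hoxa2, chr6:52164832-52165081, minus strand: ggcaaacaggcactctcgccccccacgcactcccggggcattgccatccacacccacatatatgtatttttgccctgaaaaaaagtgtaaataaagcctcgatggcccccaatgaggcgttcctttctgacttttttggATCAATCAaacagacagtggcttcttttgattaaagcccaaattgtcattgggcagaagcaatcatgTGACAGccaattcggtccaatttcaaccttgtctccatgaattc
Hoxb8, chr11:96281655-96281904, plus strand: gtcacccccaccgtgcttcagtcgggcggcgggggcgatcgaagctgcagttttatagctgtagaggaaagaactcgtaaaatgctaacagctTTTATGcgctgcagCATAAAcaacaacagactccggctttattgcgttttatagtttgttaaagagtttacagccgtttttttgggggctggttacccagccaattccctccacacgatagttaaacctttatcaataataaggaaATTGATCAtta
Hoxa10, chr6:52240855-52241104, minus strand: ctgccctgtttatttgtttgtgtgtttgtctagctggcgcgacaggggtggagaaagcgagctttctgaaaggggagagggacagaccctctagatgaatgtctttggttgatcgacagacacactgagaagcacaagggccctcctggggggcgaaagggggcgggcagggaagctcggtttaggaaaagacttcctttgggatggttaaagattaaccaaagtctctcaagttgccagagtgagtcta
The Hoxa2 window holds 1 Hox-Pbx and 1 Meis match, the Hoxb8 window 2 caudal matches and 1 Hox-Pbx match, and the Hoxa10 window no match. Among the windows of members, only those of Hoxa2 and Hoxb8 held matches to more than 1 motif, so they are not typical examples. Over the 24 windows of members, the caudal motif was found in 20.8% against 10.8% of all 32851 windows, the Hox-Pbx motif in 16.7% against 7.68%, the Meis motif in 8.33% against 15.9%, and DR5 in none against 0.00913%. These are matches of letters and say nothing of binding.

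All 39 members had at least 1 read. Between genes, levels were compared as TPM, which is scaled by gene length, averaged over the cells of each pool and then over the 11 pools. Hoxc4 had the highest level at 12.8 ± 7.61 TPM (SD, n = 11 pools), and other high members were Hoxa10 at 11.9 ± 16.1 TPM, Hoxc10 at 9.10 ± 11.9 TPM and Hoxa9 at 6.56 ± 8.44 TPM. The SDs of these genes are larger than the gaps between them. Hoxc4 reads were found in 311 cells, and its lowest pool had 4.34 TPM. Hoxa10 ranged from 0 to 51.5 TPM over the pools. At the other end, Hoxc12 had 1 read, Hoxc13 had 2 reads in 1 cell, Hoxb13 had 8 reads in 2 cells and Hoxa6 had 28 reads in 5 cells.

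Most cells held few Hox transcripts. In 352 of 830 cells no member reached 10 CPM, 314 cells held 1 or 2 members, and 31 cells held at least 10. The cell with the most had 26 of the 39. Of the 31 cells with at least 10 members, 24 were mesenchyme-like, 4 neural and neural crest-like, and 1 each was endocrine-like, pancreatic progenitor-like and of cluster 11. At least 1 member reached 10 CPM in 57.6% of cells (exact 95% interval 54.1% to 61.0%), and intervals here cover counting error only.

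The groups of cells, formed without the Hox genes, differed in which part of the Hox series they held. These are mean levels over cells, given as a description with no test. The endocrine-like cells had a mean of 0.622 members per cell at 10 CPM, and members with reads in them included Hoxc4 (3.97 CPM), Hoxa3 (3.46 CPM) and Hoxa2 (2.98 CPM). The pancreatic progenitor-like cells, with 1.75 members per cell, had their highest level for Hoxc4 (31.2 CPM), which reached 10 CPM in 56.1% of them (69 of 123). Hoxb4 and Hoxb5, genes of the same middle part of the series as Hoxc4, were at 0.0576 and 0.115 CPM there. The hepatic-like cells held 0.50 members per cell, and 2 of 20 cells had any member at 10 CPM, at a median depth of 1162435 reads. At that depth 10 CPM takes more reads than in the other groups, and 19 of the 20 cells had at least 1 read of a member.

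**Figure D1:**
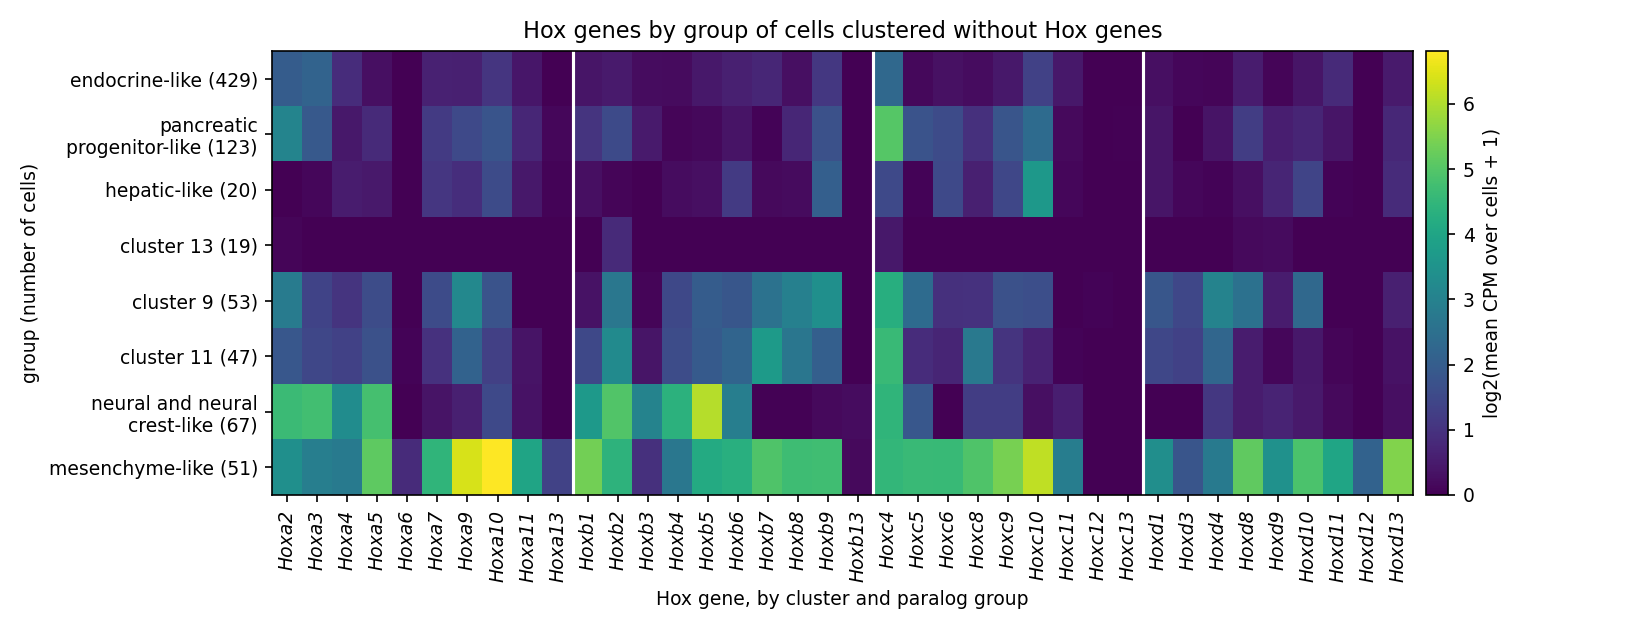
Mean level of Hox genes (columns, by cluster and paralog group) in 8 groups of cells (rows, with the number of cells), as log2 of the mean CPM over cells plus 1. The groups were formed without Hox genes. The high values of groups 9 to 13 lie in the mesenchyme-like row, and the neural and neural crest-like row is highest at Hoxb5, at 64.9 CPM before the log.

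Clusters 9 and 11, the cells with the most Cdx2, shared Hoxc4 (18.5 and 23.5 CPM) with the pancreatic progenitor-like cells and held further genes of the middle of the series. Hoxb7 was at 4.92 CPM in cluster 9 and 12.0 CPM in cluster 11, and at 0.0455 CPM in the pancreatic progenitor-like cells. Hoxb8 was at 6.78 and 5.44 CPM against 0.655 CPM, and Hoxd4 at 7.27 and 3.75 CPM against 0.286 CPM. The 2 clusters also held Hoxb9, a gene of the tail-end groups. Clusters 9 and 11 gave 29.4% and 12.8% of its reads, and the pancreatic progenitor-like cells 7.52%. Hoxb7 reached 10 CPM in 6 of 53 and 6 of 47 cells of the 2 clusters and in 0 of 123 pancreatic progenitor-like cells, so that their share could reach 2.44% (3 counts of the total) or 2.95% (exact 95% interval). The median depths were 638351, 683945 and 531524 reads.

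The neural and neural crest-like cells held 4.07 members per cell, mostly of the front and middle of the series. Their highest member was Hoxb5 (64.9 CPM, at 10 CPM in 50.7% of the cells), and other high members were Hoxb2 (30.1 CPM), Hoxa5 (27.0 CPM), Hoxa3 (25.9 CPM) and Hoxa2 (23.9 CPM). Hoxb7 and Hoxb8 were at 0.0370 and 0.0333 CPM. The summed level of groups 9 to 13 was 6.29 CPM, against 129 CPM for groups 1 to 3 and 154 CPM for groups 4 to 8. Of all reads of groups 1 to 3, 37.1% came from these cells, which made up 8.07% of cells.

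The mesenchyme-like cluster held 9.84 members per cell, including the genes of the tail end. By mean, Hoxa10 was highest (112 CPM), followed by Hoxa9 (84.2 CPM), Hoxc10 (70.3 CPM), Hoxd13 (45.1 CPM), Hoxc9 (41.8 CPM) and Hoxb1 (40.4 CPM). In this order they reached 10 CPM in 21, 24, 20, 15, 23 and 17 of the 51 cells. The median was 5.92 CPM for Hoxa9 and 0 for each of the others. These 51 cells, 6.14% of all cells, gave 75.8% of the reads of groups 9 to 13, 31.8% of those of groups 4 to 8 and 17.8% of those of groups 1 to 3. Cluster by cluster, they gave 71.8% of the Hoxd reads and 28.8% of the Hoxb reads. Evx1, which lies beside the Hoxa cluster, was found with them: 81.7% of its 431 reads came from these cells.

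Members were found on both sides of a split of that cluster at 10 CPM of Cdx2. Epcam and collagen genes were found on both sides too: Epcam reached 10 CPM in 24 of the cells above it and 21 of those below, and Col1a1 in 11 and 11. Their levels differed, with Epcam medians of 326 and 146 CPM and Col1a1 means of 140 and 436 CPM. The epithelial gene Cdh1 reached 10 CPM in 15 and 7 cells, Col3a1 in 9 and 13, Foxf1 in 7 and 10 and Pdgfra in 12 and 12. T, the tail bud and notochord factor Brachyury, reached 10 CPM in 9 and 1 cells, with mean levels of 324 and 1.39 CPM. With 7 cells between 5 and 20 CPM of Cdx2, the 26 cells above held a median of 12.5 members and the 25 cells below a median of 5. The summed level of groups 9 to 13 was 536 CPM in the former and 378 CPM in the latter, and that of groups 4 to 8 was 292 and 298 CPM. Hoxa10 reached 10 CPM in 14 and 7 cells and Hoxd13 in 9 and 6 cells. The median depths were 525610 and 338085 reads, and the part of depth in these counts was not tested. Hoxb1, a gene of the first group, reached 10 CPM in 7 and 10 cells.

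Depth was equalised by drawing 100000 reads from each of the 713 cells that had them. At least 1 read of groups 9 to 13 was then left in 67.6% of 34 mesenchyme-like cells (exact 95% interval 49.5% to 82.6%), 46.5% of 43 cells of cluster 11 (31.2% to 62.3%), 26.2% of 42 cells of cluster 9 (13.9% to 42.0%), 21.5% of 107 pancreatic progenitor-like cells (14.1% to 30.5%), 15.0% of 60 neural and neural crest-like cells (7.10% to 26.6%), 15.8% of 19 hepatic-like cells (3.38% to 39.6%) and 14.4% of 389 endocrine-like cells (11.1% to 18.3%). Any member was left in 8 of the 19 hepatic-like cells (42.1%). No read of groups 9 to 13 was left in the 19 cells of cluster 13, which allows a share of up to 15.8% (3 counts of the total) or 17.6% (exact 95% interval). The mean level of groups 9 to 13 was 10.7 CPM in cluster 11 and 29.1 CPM in cluster 9, so the share and the level order these clusters differently and no order is read from them.

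**Figure D2:**
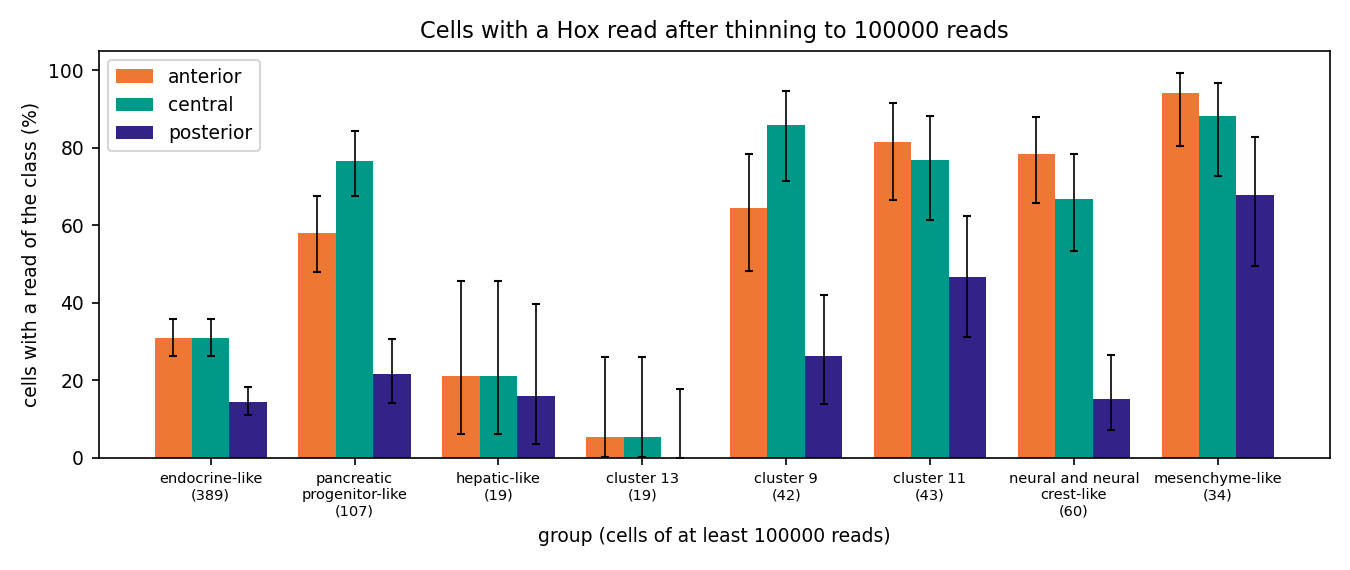
Share of cells (percent, bars) with at least 1 read of groups 1 to 3 (anterior), 4 to 8 (central) or 9 to 13 (posterior) after thinning each cell to 100000 reads, in 8 groups of cells with the number of cells below each name. Error bars are exact 95% binomial intervals. The posterior bar is highest in the mesenchyme-like cells, at 67.6%, and is 14.4% in the endocrine-like cells.

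Across the 713 cells with at least 100000 reads, neighbours within a cluster had a median Spearman correlation of 0.36 (26 pairs), members of the same paralog group in different clusters 0.29 (31 pairs), other pairs within a cluster 0.23 (89 pairs) and the remaining pairs 0.22 (350 pairs). The highest neighbour pair was Hoxb7 and Hoxb8 at 0.59. Without the mesenchyme-like and the neural and neural crest-like cells these medians were 0.15, 0.11, 0.10 and 0.11 over 619 cells. With Cdx2, the 32 members had a median correlation of 0.18, and the highest was that of Hoxd4 at 0.40. Hoxc4 had the highest correlation with Pdx1, the pancreatic and duodenal ParaHox gene, at 0.24. The cells share libraries and differ in depth, so these values are descriptions.

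Hox levels were then followed by reporter and stage. HM against HZ compares cells with GFP on both Neurog3 alleles and on 1 allele. Endocrine-like cells numbered 4 among HM, 171 among HZ and 254 among Ngn3Cre cells, and in summed pools fewer cells of a type and less RNA per cell cannot be told apart.

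Hoxc4 had 30.8, 20.8, 16.5 and 18.0 CPM in the HM pools of 15, 18, 21 and 24 somites. It had 21.4, 13.2, 14.9 and 9.46 CPM in the HZ pools of 18, 21, 24 and 27 somites, and 4.84, 8.97 and 8.56 CPM in the Ngn3Cre pools of 21, 24 and 27 somites. The Ngn3Cre pools lie below every other pool of at least 10 cells, and the HM and HZ pools overlap. Ngn3Cre was lower than HZ at all 3 shared stages, with a log2 difference of -0.83 (SE 0.37, p = 0.0492), but this did not pass the threshold of 0.05 after Benjamini-Hochberg adjustment in edgeR's quasi-likelihood test (adjusted p = 0.472). The log2 difference of HM from HZ was 0.31 (SE 0.35, edgeR adjusted p = 0.753).

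Hoxa10 had 42.5 and 48.5 CPM in the HM pools of 15 and 18 somites and 1.02 and 1.69 CPM in those of 21 and 24 somites. It had 11.5, 2.80, 4.49 and 6.07 CPM in the HZ pools and 1.60, 7.84 and 0 CPM in the Ngn3Cre pools. The 2 earliest HM pools are thus the highest. Mesenchyme-like cells made up 37.5% and 17.6% of the cells of those 2 pools and 3.70% and 1.25% of the later HM pools. The log2 difference of HM from HZ was -0.82 (SE 1.55, edgeR adjusted p = 0.867), and that of Ngn3Cre from HZ was -0.72 (SE 1.38, adjusted p = 0.926).

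Hoxb7, the highest Hoxb member per length, had 5.90, 0.173, 1.49 and 5.67 CPM in the HM pools, 6.05, 1.18, 0.366 and 0.985 CPM in the HZ pools and 2.14, 1.82 and 0.5256 CPM in the Ngn3Cre pools. Hoxd13, the highest Hoxd member, had 10.5, 11.4, 0.629 and 0.230 CPM in the HM pools, 3.32, 1.496, 1.40 and 12.3 CPM in the HZ pools and 0.736, 3.99 and 0 CPM in the Ngn3Cre pools. For both genes the ranges of the 3 reporters overlap in part, and the highest Ngn3Cre pool lies below the highest HM and HZ pools.

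**Figure D3:**
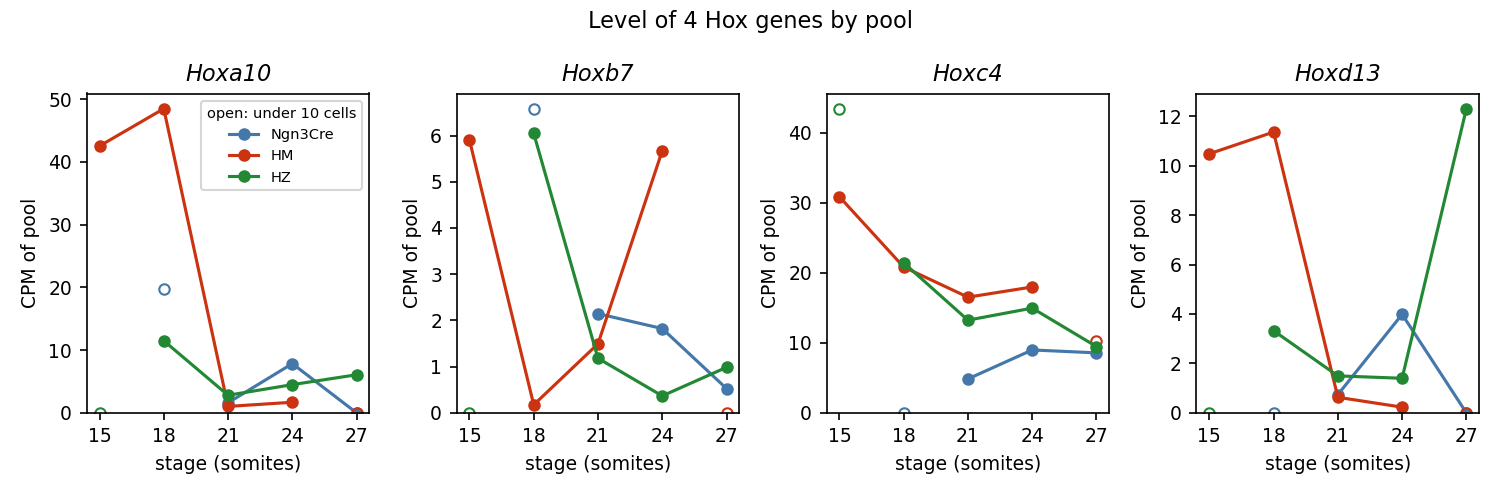
CPM of Hoxa10, Hoxb7, Hoxc4 and Hoxd13 (panels) against somite stage, by reporter. Filled points joined by lines are pools of at least 10 cells and open points are pools of fewer. Hoxc4 lies lower in the 3 Ngn3Cre pools than in the others, and Hoxa10 is high in the HM pools of 15 and 18 somites, at 42.5 and 48.5 CPM.

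No member passed the threshold for HM against HZ. Of 18420 genes tested with edgeR, 1.47% were called, and none of the 36 members tested was among them. Hoxb13, Hoxc12 and Hoxc13 were not tested because of low counts. At an unadjusted p under 0.05 there were 3 members, Hoxc10, Hoxc11 and Hoxd9, all lower in HM, which is 8.33% of members against 13.4% of all genes in either direction and 8.79% lower. Hoxc10 had 0.867, 0.996 and 0.881 CPM in the HM pools of 18, 21 and 24 somites against 15.9, 6.31 and 3.76 CPM in the HZ pools of the same stages, a log2 difference of -3.57 (SE 1.07, edgeR adjusted p = 0.173), but 41.9 CPM in the HM pool of 15 somites, which has no HZ pool of at least 10 cells beside it. Hoxd9 had a log2 difference of -3.77 (SE 1.35, edgeR adjusted p = 0.255). DESeq2 called 3 members lower, Hoxc10, Hoxd9 and Hoxd12, where it called 7.52% of all genes and 5.82% lower, and limma called no gene (0.00%).

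In edgeR's fit most log2 differences of the tail-end groups were negative. Of 13 members of groups 9 to 13 tested, 11 had a negative log2 difference with a median of -2.08. For groups 4 to 8 it was 10 of 15 with a median of -0.40, and for groups 1 to 3 it was 5 of 8 with a median of -0.17. Over all genes the median was -0.09, and 55.2% were negative. limma on the mean of log2(CPM + 1) over cells gave another count: 8 of 16 members of groups 9 to 13 were negative with a median of 0.0027, and 12 of all 39 members were (30.8%), where 53.6% of all genes were. The summed level of groups 9 to 13 over all stages was 74.1 ± 77.4 CPM in HM and 41.1 ± 27.9 CPM in HZ (SD, n = 4 pools each), so its mean was higher in HM, with the HM pool of 15 somites included. At the 3 shared stages, 9 of 36 members (25.0%) were lower in HM each time, where 18.2% of all genes were. Mesenchyme-like cells made up 13.1%, 8.72% and 7.06% of the HZ pools of 18, 21 and 24 somites against 17.6%, 3.70% and 1.25% of the HM pools. With the cells of the mesenchyme-like and neural clusters left out, the median over members was 0.0066 and no member had an unadjusted p under 0.05, where 13.6% of all genes did.

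**Figure D4:**
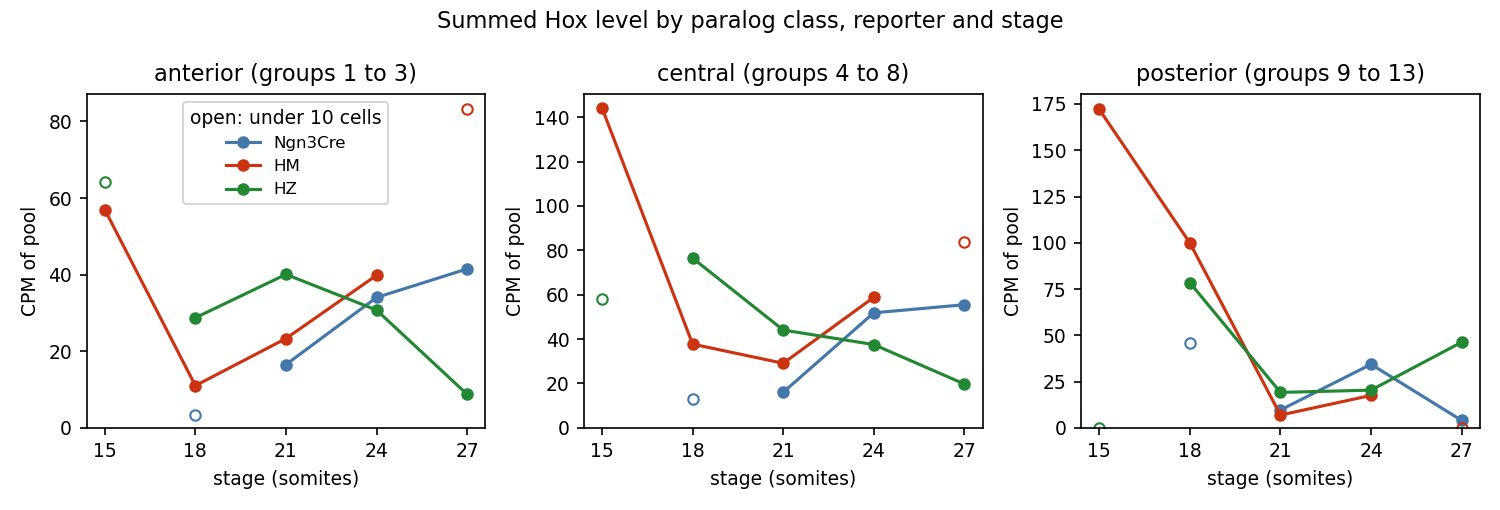
Summed CPM of the members of groups 1 to 3, 4 to 8 and 9 to 13 (panels) against somite stage, by reporter. Filled points joined by lines are pools of at least 10 cells and open points are pools of fewer. The HM pool of 15 somites is highest in each panel among the filled points, with 172 CPM for groups 9 to 13.

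In some pools the level of the tail-end groups came from a few cells. Groups 9 to 13 summed to 172 CPM in the HM pool of 15 somites and to 0.946 CPM with its 6 mesenchyme-like cells left out. In the HM pool of 18 somites 1 cell held 94.9% of these reads, and the level was 99.9 CPM with and 5.00 CPM without the mesenchyme-like cells. In the HZ pool of 27 somites 1 cell held 99.2% of them, with 46.3 and 0.426 CPM. In the Ngn3Cre pool of 24 somites the level was 34.3 CPM with and 1.28 CPM without the mesenchyme-like cells. In the Ngn3Cre pool of 27 somites 1 cell held 96.2% of these reads, with 4.01 and 0.157 CPM. The other pools of at least 10 cells changed little or in part. The level was 6.89 and 5.85 CPM in the HM pool of 21 somites and 17.5 and 17.4 CPM in that of 24 somites. It was 78.4 and 23.5 CPM in the HZ pool of 18 somites, with and without those cells. Groups 1 to 3 summed to 57.0 and 25.5 CPM in the HM pool of 15 somites.

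Within a group of cells, HM and HZ could be set side by side for the pancreatic progenitor-like cells. Groups 1 to 3 had mean levels of 33.5 CPM in 59 HM cells and 35.8 CPM in 56 HZ cells, groups 4 to 8 had 40.3 and 45.4 CPM, and groups 9 to 13 had 15.2 and 19.4 CPM. The mean number of members per cell was 1.64 and 1.93, at median depths of 596732 and 392939 reads. The HM cells numbered 10, 10, 16 and 23 at 15, 18, 21 and 24 somites, and the HZ cells 4, 24, 21 and 7. These are means over cells, without a test, and stage was not held equal between the 2 sets.

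No member passed for Ngn3Cre against HZ either. edgeR called 0.337% of 18420 genes and none of 36 members. Hoxc4 was the 1 member at an unadjusted p under 0.05 (2.78% of members, against 10.5% of all genes and 7.05% lower), and in 7 of the 11 fits that each left out 1 pool no member was, where 5.37% to 11.7% of all genes were. DESeq2 called no member (4.99% of all genes, 3.82% lower), with 4 of 36 (11.1%) at an unadjusted p under 0.05, where 14.5% of all genes were. limma called none, with 2 of 39 (5.13%) at an unadjusted p under 0.05, where 7.71% of all genes were. Of the 36 members 26 had a negative log2 difference, where 51.2% of all genes did, with a median of -0.55 against -0.02 over all genes. At the 3 shared stages 4 members (11.1%) were lower each time, Hoxb8, Hoxc4, Hoxd4 and Hoxd9, where 16.5% of all genes were. The same HZ pools serve both comparisons. Neural and neural crest-like cells made up 5.66%, 16.1% and 18.8% of the Ngn3Cre pools of 21, 24 and 27 somites and 6.71%, 2.35% and 7.69% of the HZ pools. Hoxb5, the leading gene of those cells, had 0.694, 15.7 and 19.3 CPM in the Ngn3Cre pools and 2.65, 3.83 and 0.383 CPM in the HZ pools of the same stages. The part of these cells in the comparison was not tested for single members.

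With stage, the members had mostly negative slopes. edgeR called 0.00% of 16478 genes and none of the 33 members tested. 9 members had an unadjusted p under 0.05 and all 9 had negative slopes, which is 27.3% of members against 8.36% of all genes in either direction and 3.53% with a negative slope. Negative slopes were seen in 25 of 33 members and in 48.2% of all genes. They were Hoxa5, Hoxa7, Hoxa9, Hoxb8, Hoxc6, Hoxc8, Hoxc9, Hoxc10 and Hoxd9. Hoxc6 had a slope of -0.41 log2 units per somite (SE 0.11, edgeR adjusted p = 0.334) and Hoxc10 of -0.45 (SE 0.15, adjusted p = 0.464). Hoxc6 had 6.87, 3.21, 0.341 and 1.21 CPM in the HM pools and 6.09, 1.95, 0.633 and 0.273 CPM in the HZ pools, so both series were lower late than early. Hoxc4 had a slope of -0.08 (SE 0.04, edgeR adjusted p = 0.683) and Hoxa10 of -0.32 (SE 0.20, adjusted p = 0.716). DESeq2 called 2 members lower, Hoxc6 and Hoxc10, where it called 1.85% of all genes and 0.837% lower. limma called no gene (0.00%), with 16 of 39 members (41.0%) at an unadjusted p under 0.05, all with negative slopes. The share over all genes at that p is not given here for limma. In edgeR without the HM pool of 15 somites 3 of 35 members (8.57%) had an unadjusted p under 0.05, where 13.2% of all genes did. Without the HZ pool of 18 somites it was also 3 of 35, where 5.98% of all genes did. Without the mesenchyme-like and neural cells it was 1 of 30 (3.33%), where 9.53% of all genes did.

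The slope difference between HM and HZ, fitted on 8 pools, was not past the threshold for any of 33 members, nor for any of 16207 genes (0.00% called with edgeR). 4 members had an unadjusted p under 0.05, all negative: Hoxa10, Hoxd10, Hoxd11 and Hoxd13, which is 12.1% of members against 7.60% of all genes in either direction and 2.42% negative. The sign was negative in 16 of 33 members and in 45.8% of all genes. Hoxd13 had a difference of -0.95 log2 units per somite (SE 0.28, edgeR adjusted p = 0.642) and Hoxa10 of -0.58 (SE 0.23, adjusted p = 0.644). DESeq2 called 1 member, Hoxd13, where it called 1.33% of all genes and 0.333% in that direction. The Hoxd13 reads of the HZ pool of 27 somites, its highest HZ value, came from a pool in which 1 cell held nearly all reads of groups 9 to 13, as given above, and without that pool the difference was -0.54 and no member had an unadjusted p under 0.05, where 3.36% of all genes did. Without the HM pool of 15 somites 8 of 33 members (24.2%) did, where 10.6% of all genes did. Of these 8, 3 were negative (Hoxa10, Hoxd10 and Hoxd13), and Hoxa5, Hoxb5, Hoxb6, Hoxb7 and Hoxb9 were positive. Without the HM pool of 24 somites 2 members (6.06%) had an unadjusted p under 0.05, where 11.9% of all genes did. With the mesenchyme-like and neural cells left out, 6 of 30 members (20.0%) had an unadjusted p under 0.05, all with a positive difference. The share over all genes is not given here for that fit, so nothing is read from its count.

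Among upstream and partner genes, 1 passed the threshold in the 4 fits. Cdx2 was lower in Ngn3Cre than in HZ, with 3.66, 6.68 and 0.263 CPM against 45.8, 43.6 and 9.30 CPM at 21, 24 and 27 somites, a log2 difference of -3.94 (SE 0.49, edgeR adjusted p = 0.0222). Without the Ngn3Cre pool of 21 somites the edgeR adjusted p was 0.170, and without the HZ pool of 21 somites it was 0.0768. Cdx2 kept its sign but lost its call in 4 alternative fits, and limma called no gene in this comparison (0.00%). Cells of cluster 9, high in Cdx2, numbered 0, 1 and 0 in the Ngn3Cre pools and 9, 5 and 1 in the HZ pools of these stages. Those of cluster 11 numbered 0, 0 and 0 against 6, 7 and 0. The part of these cells in the Cdx2 difference was not tested. HM had 86.4 ± 42.3 CPM of Cdx2 (SD, n = 4 pools, 15 to 24 somites) and HZ 38.0 ± 19.6 CPM (SD, n = 4 pools, 18 to 27 somites). At 18, 21 and 24 somites Cdx2 had 35.7, 83.8 and 139 CPM in HM and 53.5, 45.8 and 43.6 CPM in HZ. The log2 difference of HM from HZ was 0.49 (SE 0.43, edgeR adjusted p = 0.679). Pdx1 had 33.9 ± 11.5 CPM in HM, 22.4 ± 10.7 CPM in HZ and 12.6 ± 2.55 CPM in Ngn3Cre (SD, n = 4, 4 and 3 pools), with a log2 difference of HM from HZ of 0.60 (SE 0.40, edgeR adjusted p = 0.562). Cdx4 had 16.4 ± 30.7 CPM in HM, 5.44 ± 7.81 CPM in HZ and 2.22 ± 1.61 CPM in Ngn3Cre, and 62.8% of its reads came from mesenchyme-like cells. The HM mean of Cdx4 includes 62.4 CPM in the pool of 15 somites. At 18, 21 and 24 somites Cdx4 was lower in HM (1.13, 0.734 and 1.15 CPM) than in HZ (17.0, 1.40 and 3.33 CPM). Cdx1 had 0.210 ± 0.225, 1.08 ± 0.677 and 1.00 ± 1.35 CPM.

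The TALE cofactors Meis1 and Meis2 were found in more cells than any member described here. Meis1 reached 10 CPM in 545 cells and Meis2 in 434. Meis1 had 146 ± 27.2 CPM in HM, 105 ± 24.1 CPM in HZ and 70.2 ± 11.1 CPM in Ngn3Cre (SD, n = 4, 4 and 3 pools), and Meis2 113 ± 59.2, 82.2 ± 26.6 and 61.2 ± 21.2 CPM. The stages behind these means differ between reporters. At 18, 21 and 24 somites Meis2 had 179, 58.8 and 67.1 CPM in HM and 100, 89.6 and 96.4 CPM in HZ. None of the 9 TALE genes, 17 retinoic acid genes, 25 Polycomb and trithorax genes, 8 axis signal genes and 2 flanking genes that were tested passed in either reporter comparison.

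Of 9 other RNAs listed for the clusters, 7 were tested and none passed in any fit. Hoxb5os, antisense to Hoxb5 and Hoxb6, was at 69.1 CPM in mesenchyme-like cells and 0.353 CPM in neural and neural crest-like cells, where Hoxb5 was highest. Hotair had 8 reads, all in mesenchyme-like cells, and Hottip had none. The use of strand in counting was not given in the sources used here, so reads of overlapping antisense pairs, and of overlapping models such as Hoxa3 with Hoxa4, Hoxa5 and Hoxa6, Hoxc5 with Hoxc6, Hoxc8, Hoxc9 and Hoxc10, and Hoxd3 with Hoxd4, may not be separated.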

How the data were processed

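The authors deposited raw read counts and, separately, TPM values, each for 26313 genes in 830 cells. HISAT2 2.1.0, Trimmomatic 0.39 and FastQC 0.11.9 are named in the submitters' processing notes, as are the builds GRCm38 and mm10. Counter, annotation, strand and UMI use and cell filters: not given in the sources used here. No 2 cells had identical counts, and no doublet caller was run.

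Counts were summed by reporter and stage, and the 11 pools of at least 10 cells were tested on all genes kept by edgeR's default filter (edgeR 4.0.16, R 4.3.3, quasi-likelihood test, TMM, Benjamini-Hochberg adjustment at 0.05). Reporter contrasts had reporter and stage as factors, and slopes had stage as a number. The fits were tested on simulated data. DESeq2 1.42.0 and limma 3.58.1 were alternatives. Cells with at least 2000 genes (809 of 830) were clustered with scanpy 1.11.5 (2000 variable genes, 30 components, 15 neighbours, Leiden resolution 1), and named from listed markers: at least 3, each with a log2 fold of at least 1 and 10 CPM in 25% of cells. The naming thresholds were set after seeing the clusters. Named members are the highest by TPM of each cluster and class and any past the threshold; some items are not reported here. The members and lists were chosen with earlier results of these data known.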

Additional observations from a re-analysis of the deposited data

Results flagged for a closer look

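Hoxb7 in the HZ pool of 18 somites, at 6.05 CPM, stood apart from the other 3 HZ pools, which had 0.366 to 1.18 CPM. It was the 1 value marked by Dixon's test at 95% among 18 sets of 4 pools, and chance marks about 1 set in 20.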

How the results depend on the processing

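No paired analysis was possible because the replicate numbers in the labels name single cells, which were summed into pools. No member was called by edgeR under any alternative, and DESeq2 called 3 members for HM against HZ, 2 for the change per somite and 1 for the difference in slope. The share of cells with a member was 78.7% at 1 read, 25.3% at 50 CPM and 68.3% after thinning. The mesenchyme-like share of the reads of groups 9 to 13 was 77.1% and 77.2% at clustering resolutions 0.5 and 2. The causes of the changes of sign below were not tested.

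For HM against HZ, limma on mean log2 values gave 0.029 for the median of members and 0.22 for Hoxa10. Without the endocrine, neural and mesenchyme clusters the median was 0.18, Hoxc4 -0.56 and Cdx2 -0.30, and without the neural and mesenchyme clusters (chosen after seeing the data) the median was 0.0066. Leaving out 1 pool gave -2.32 to 0.19 for Hoxa10. For Ngn3Cre against HZ, leaving out 1 pool gave -2.36 to 0.51 for Hoxa10 and -1.25 to 0.035 for the median of members. The fit of this comparison without the endocrine, neural and mesenchyme clusters was not run, as no Ngn3Cre pool was left.

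For the change per somite without the endocrine, neural and mesenchyme clusters, the median was 0.23, Hoxa10 0.10 and Hoxc6 0.11. For the difference in slope, the median was -0.13 with pools of at least 3 cells and -0.028 by limma, and -0.37 to 0.50 leaving out 1 pool. Hoxa10 was 0.037 by limma, 0.54 without the endocrine, neural and mesenchyme clusters and 0.67 without the neural and mesenchyme clusters.

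Calls over all genes moved more. For HM against HZ there were 271, against 1386 with DESeq2, 37 with pools of at least 3 cells, 74 at shared stages, 0 with limma, 0 without the endocrine, neural and mesenchyme clusters and 89 to 318 leaving out 1 pool. For Ngn3Cre against HZ there were 62, against 920 with DESeq2, 105 with no filter, 2 with pools of at least 3 cells, 0 with limma, 301 without the neural and mesenchyme clusters and 0 to 104 leaving out 1 pool. For the change per somite there were 0, against 305 with DESeq2 and 76 with pools of at least 3 cells, and for the difference in slope 0 against 215 with DESeq2. In simulated data of 15144 genes, edgeR recovered 61% of log2 differences of 1.5 for HM against HZ. For the difference in slope it recovered 18% of simulated effects of 1.5 log2 units. Those slope effects were set over a span of several somites, so the 1.5 is not on the per-somite scale of the slopes given above. The simulation gave every gene the same dispersion and left out genes with few reads. Its percentages therefore do not describe the Hox members, and how often a change in a member would be recovered was not tested.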
